A study of Bos taurus with 16 samples.

Results

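The transcripts of single bovine compact morulae (CM) were compared with those of single blastocysts (BL), over all autosomal loci that held reads in any of the 4 embryos. By this rule 13799 of the 27393 loci of the deposited table were members, and 7599 of them had reads in all 4 embryos. Both groups were intact embryos that had developed in vivo (Bos taurus), with no treatment named in the labels and 2 embryos at each stage. Age in days, breed and sex are not given in the sources used here. They belong to a series of 16 single oocytes and embryos at 8 stages, whose other stages are the mature oocyte (MII), the 2-, 4-, 8- and 16-cell embryo and the early morula (EM). The RNA of each embryo was amplified in 2 rounds and sequenced on the SOLiD platform.

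In a compact morula the outer cells have flattened against each other and polarised. The embryo then pumps sodium and water inward to form a cavity, and its cells separate into an outer epithelium, the trophectoderm, and an inner cell mass that later gives the hypoblast and the epiblast. Cattle differ from mice in that POU5F1 protein is known to persist in the trophectoderm of the early blastocyst. Because each sample was a whole embryo, fewer cells of a type and less RNA per cell cannot be told apart in any result below.

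The 4 embryos held 975526 and 1400784 reads (CM) and 1018125 and 681307 reads (BL), within the range of 607672 to 3379426 over the series. Levels are given in CPM, the reads on a locus divided by all reads of the embryo and multiplied by 1e6, so they rank loci by reads and not by molecules. The value that 3 reads give, taken here as the limit of detection, lay between 2.14 and 4.40 CPM in the 4 embryos. The replicates were not equally close. At 50 CPM or more, 103 of 1837 loci (5.61%) differed over 4-fold between the 2 compact morulae, and 45 of 2101 (2.14%) between the 2 blastocysts. Of those 103 loci, 73 were higher in CM embryo 1. An earlier embryo also stood apart. The second 16-cell embryo was above the other 16-cell embryo and both early morulae at 69 of the 110 loci of at least 50 CPM that were called higher in blastocysts (62.7%), against 25.8% of all loci tested. That embryo enters the comparison through the estimate of the spread and through the filter on low counts described below. Without it in the fit, over the same loci tested, 272 loci were higher and 132 lower in blastocysts. Most markers of other cells had few or no reads: FSHR, AMH, INHA and FOXL2 of granulosa cells, and HBA, HBB, CD3E and PTPRC of blood, had no reads in the 4 embryos at the loci used. Those with reads included STAR, a steroidogenic gene, at 508 and 576 CPM in the compact morulae and 565 and 567 CPM in the blastocysts, the receptor LHCGR at 3.08 and 9.28 CPM against 10.8 and 52.8 CPM, LYZ (lysozyme) at 2.05 and 2.14 CPM against 6.88 and 17.6 CPM, and HSD3B1, described with the housekeeping groups. Their part in the results was not tested. A run of 2578 consecutive loci is listed at 0 in every sample of the series, 19 autosomal members of the gene lists used here among them, and these are not analysed here.

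The first question was how many loci differed between the stages. Differences were tested with limma, in 1 model of all 8 stages on the deposited values after adding 1 and taking log2, so log2 changes of loci with few reads are understated. Of 9380 autosomal loci tested, 273 (2.91%) were higher and 134 (1.43%) lower in blastocysts at an adjusted p under 0.05, and the median log2 change over all of them was 0.11. The filter on low counts ran over all 16 samples, so 345 of the 9380 had reads only at other stages and none in these 4 embryos, and could not differ. Over the other 9035, 3.02% were higher and 1.48% lower, and the median was 0.16. In the gene lists such genes are pointed out where they occur. The called loci changed by between 2.08 and 8.55 (log2) upward and between 1.98 and 9.61 downward. No called locus overlapped between the stages, against 28.9% of all loci tested that lay wholly higher and 21.2% that lay wholly lower in blastocysts. The balance of the directions depended on the tool. edgeR on the recovered reads called 69 higher (0.736%) and 75 lower (0.8%), all of them also called by limma. DESeq2 called 171 higher and 171 lower (2.43% each) of the 7031 loci to which it gave an adjusted p. At an unadjusted p under 0.05, limma had 1047 loci higher (11.2%) and 643 lower (6.86%). Single embryos weighed heavily: without CM embryo 2 the counts were 93 higher and 42 lower, without BL embryo 2 they were 87 and 37, and without BL embryo 1 they were 154 and 108. In each of the 4 fits that left out 1 embryo, 68 of the 273 higher and 25 of the 134 lower loci kept their call.

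Trophectoderm genes formed the group with the most calls. Of the 24 autosomal members tested, 11 rose, none fell and 13 did not pass, with a median log2 change of 2.75, against 2.91% of all loci called higher and a median of 0.11. As in every list here, the members were chosen with earlier results of these data known, so this share is a description and not a test. TFAP2A and ASCL2, for example, had nearly all their reads in blastocysts and passed the filter on low counts through them. Keratins of simple epithelia, the intermediate filament proteins of the trophectoderm, were among the 11. KRT8 (XLOC_056577) held 28.7 and 0 CPM in the compact morulae and 525 and 503 CPM in the blastocysts (log2 change 6.59, SE 1.42, adjusted p = 0.0136). KRT18 (XLOC_057260), its partner in the filament, held 51.3 and 0 CPM against 388 and 367 CPM (log2 change 5.73, SE 1.52, adjusted p = 0.0432). For both, CM embryo 1 held a low level and CM embryo 2 no reads, and both blastocysts were far higher. KRT19 (XLOC_028070) stood at 0 and 0.714 CPM against 124 and 109 CPM (log2 change 6.47, SE 0.90, adjusted p = 7.4e-04), with a single read in 1 compact morula.

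The GATA and AP-2 transcription factors of the lineage moved unevenly. GATA3 (XLOC_012632), a regulator of trophectoderm fate, rose from 11.3 and 1.43 CPM to 176 and 138 CPM (log2 change 4.75, SE 1.00, adjusted p = 0.0119). GATA2 (XLOC_037487) was at 28.7 and 0.714 CPM in the compact morulae and 128 and 132 CPM in the blastocysts (log2 change 4.13, SE 1.05, adjusted p = 0.035), and again most of the morula reads came from CM embryo 1. TFAP2A (XLOC_039528) had no reads in either compact morula and 49.1 and 41.1 CPM in the blastocysts, at least 36.4-fold higher when set against 3 reads over both morulae (log2 change 5.60, SE 0.71, adjusted p = 4.9e-04). Its relative TFAP2C (XLOC_012865) was already present at 125 and 107 CPM in the compact morulae and 198 and 141 CPM in the blastocysts and did not pass (log2 change 0.35, adjusted p = 0.817). TEAD4 (XLOC_057697), which directs the lineage in mice, was at 39.98 and 15 CPM against 2.95 and 10.3 CPM and did not pass either (log2 change -2.11, adjusted p = 0.17). CDX2, the factor used most often to mark trophectoderm, had no reads in these 4 embryos and 1 read in the whole series, and HAND1 and ELF5 likewise had none in the 4. With so few reads no difference between the stages could be seen for CDX2, which lies outside the run of loci listed at 0.

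Among 6 tested members with secreted or placental roles, 2 rose and 4 did not pass. PTGS2 (XLOC_019932), the inducible enzyme of prostaglandin synthesis, was at 3.08 and 0 CPM in the compact morulae and 277 and 216 CPM in the blastocysts (log2 change 6.96, SE 1.39, adjusted p = 0.008). PAG2 (XLOC_048855), a pregnancy-associated glycoprotein, held 5.13 and 0 CPM against 88.4 and 129 CPM (log2 change 5.48, SE 0.82, adjusted p = 0.00123), although reads can be shared among the near-identical genes of this family. SFN, ASCL2 and ETS2 also rose and are named here outside the rule for named genes because they complete the 11. The interferon tau gene IFNT, the signal of maternal recognition, had 6.15 and 2.14 CPM against 0 and 0 CPM and did not pass (log2 change -2.43, adjusted p = 0.0617). Summed over the list, the level was 1016 and 1139 CPM in the compact morulae and 3958 and 3851 CPM in the blastocysts, and without its highest member it was 754, 1037, 2998 and 2953 CPM. Only KRT19, TFAP2A and PAG2 kept their call whichever embryo was left out: the list had 3 calls without CM embryo 2, 4 without BL embryo 1 and 4 without BL embryo 2. edgeR called 3 of the members (KRT19, PTGS2 and GATA3). DESeq2 called these 3 and KRT8, and did not call PAG2, KRT18, SFN or GATA2 (adjusted p = 0.723, 0.448, 0.15 and 0.0705). It gave no adjusted p for TFAP2A, ETS2 and ASCL2.

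**Figure D1:**
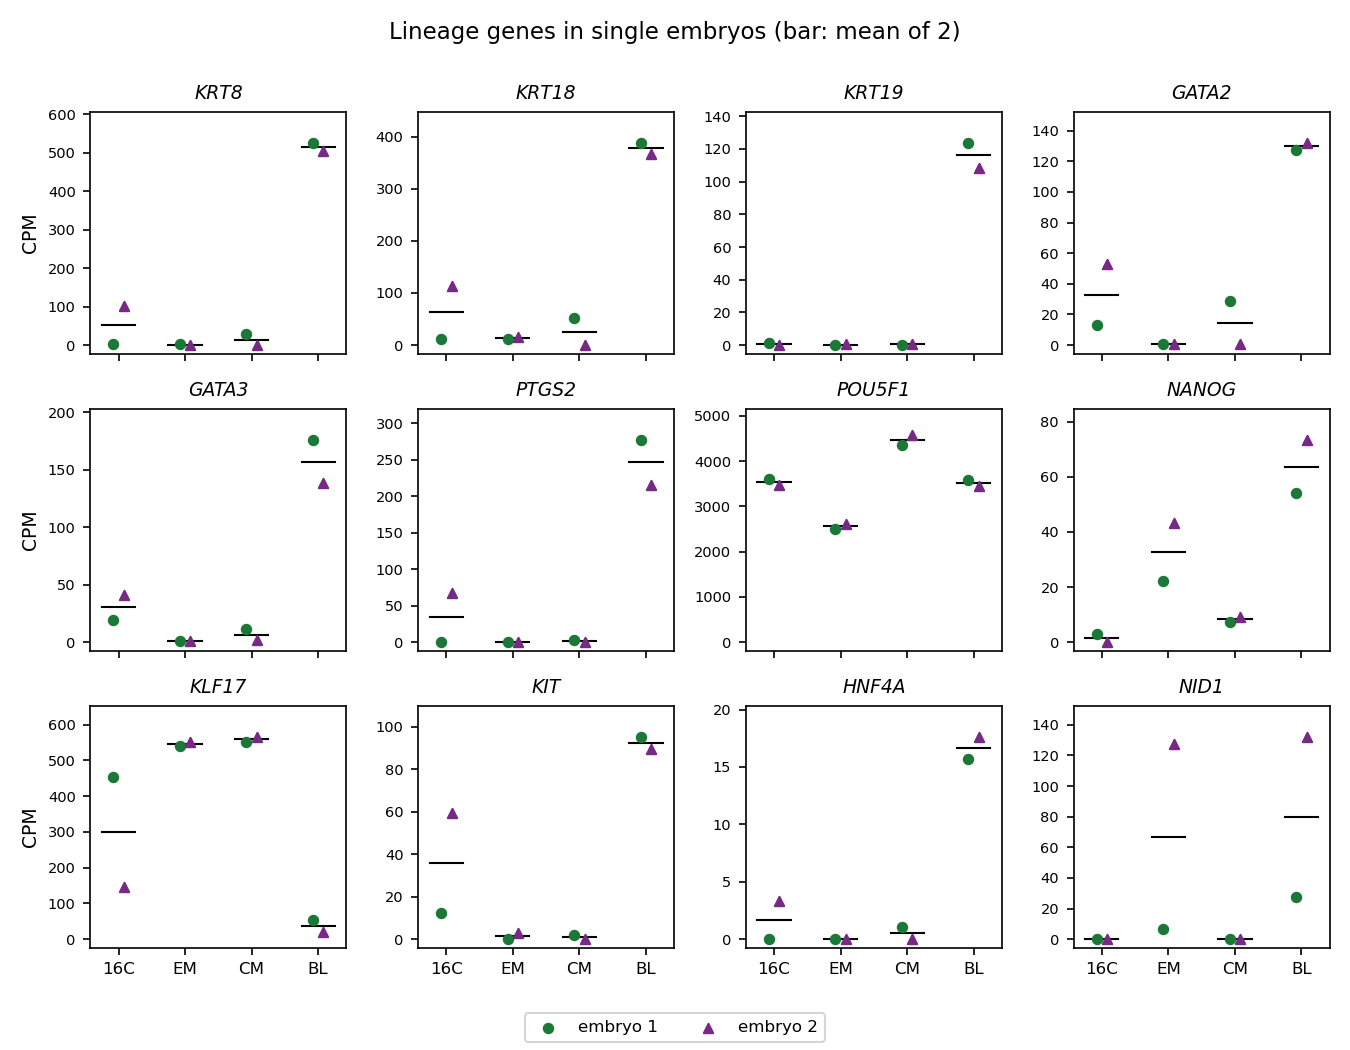
Level in CPM (vertical, linear from 0) of 12 lineage genes in single 16-cell embryos (16C), early morulae (EM), compact morulae (CM) and blastocysts (BL); circles are embryo 1, triangles embryo 2 and bars the mean of 2. KRT8, KRT18, GATA2, GATA3 and PTGS2 are high in both blastocysts and present in the second 16-cell embryo, while POU5F1 stays between 2498 and 4588 CPM and KLF17 is low in both blastocysts.

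Genes of pluripotency did not move as 1 group. Of 26 members tested, 4 rose, 1 fell and 21 did not pass, against 2.91% and 1.43% of all loci called higher and lower (median log2 change 0.24). POU5F1 (XLOC_039761), the core factor of the inner cell mass, was at 4356 and 4588 CPM in the compact morulae and 3580.1 and 3461 CPM in the blastocysts (log2 change -0.52, adjusted p = 0.702), and SALL4 (XLOC_012596) at 2901 and 4366 CPM against 2061 and 2144 CPM (log2 change -0.93, adjusted p = 0.514). Both were among the well-covered genes, and neither passed. NANOG (XLOC_056986), which marks the epiblast, held 7.18 and 9.28 CPM against 54 and 73.4 CPM, higher in both blastocysts but not past the threshold (log2 change 2.65, adjusted p = 0.17). KLF4 (XLOC_067566) held 81 and 99.9 CPM against 25.5 and 17.6 CPM and did not pass limma (log2 change -2.21, adjusted p = 0.0895) or edgeR, while DESeq2 called it lower (adjusted p = 0.0321). SOX2 had 12 reads in CM embryo 1 and none in CM embryo 2, with 1 read in each blastocyst, and was too sparse to be tested.

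The member that fell was KLF17 (XLOC_050461), a Krüppel-like factor of the early human epiblast, at 550.5 and 566 CPM in the compact morulae and 54 and 20.5 CPM in the blastocysts (log2 change -4.20, SE 0.81, adjusted p = 0.00627). Its level was alike in the 2 compact morulae and far lower in both blastocysts. Those that rose were KIT (XLOC_060252), the receptor of stem cell factor (2.05 and 0 CPM against 95.3 and 89.5 CPM; log2 change 5.78, adjusted p = 0.00346), TDGF1 (XLOC_037719), a NODAL co-receptor (0 and 0 CPM against 25.5 and 44 CPM; log2 change 5.19, adjusted p = 6.4e-04), UPP1 (XLOC_053457), which cleaves uridine (0 and 0 CPM against 23.6 and 19.1 CPM; log2 change 4.55, adjusted p = 4.0e-04), and SUSD2 (XLOC_021777), a surface marker of naive cells (15.4 and 0 CPM against 70.7 and 88.1 CPM; log2 change 4.33, adjusted p = 0.0241). TDGF1 and UPP1 had no reads in either compact morula, and their levels in blastocysts were at least 26.1-fold and at least 17.2-fold that of 3 reads over both. Their calls held whichever embryo was left out, but edgeR did not make them (adjusted p = 0.0965 and 0.139) and DESeq2 gave no adjusted p for either. As UPP1 had reads in blastocysts only, its own values held no spread once 1 blastocyst was left out. Those fits could not test its call. KIT and KLF17 were called by edgeR (adjusted p = 0.0174 and 0.0261) and by DESeq2, and SUSD2 by neither. The limma calls of KIT, KLF17 and SUSD2 were lost without CM embryo 2 or BL embryo 2, and that of SUSD2 also without BL embryo 1.

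The hypoblast, the inner layer that will line the yolk sac, was covered only in part. Of 16 members tested, 3 rose and none fell, against 2.91% and 1.43% of all loci (median log2 change 1.24 over the 15 with reads in these embryos, APOB having none). HNF4A (XLOC_012539), a transcription factor of visceral endoderm, was at 1.03 and 0 CPM in the compact morulae and 15.7 and 17.6 CPM in the blastocysts (log2 change 3.68, SE 0.71, adjusted p = 0.00671). APOA1 (XLOC_017435), an apolipoprotein that endoderm secretes, had no morula reads and 18.7 and 33.8 CPM in the blastocysts (log2 change 4.78, SE 0.64, adjusted p = 6.3e-04). NID1 (XLOC_047431), a basement membrane protein, likewise had none in morulae and 27.5 and 132 CPM in blastocysts (log2 change 6.02, SE 1.14, adjusted p = 0.00595), and it was also present in 1 early morula at 127 CPM. GATA6 (XLOC_041500), the first hypoblast factor, held 251 and 231 CPM against 166 and 166 CPM (log2 change -0.71, adjusted p = 0.699), and the receptor PDGFRA (XLOC_060251) 64.6 and 53.5 CPM against 133 and 109 CPM (log2 change 0.85, adjusted p = 0.526). GATA4 and SOX17, which act after GATA6, had 1 and 4 reads in the blastocysts together and could not be tested. The limma call of APOA1 held whichever embryo was left out, and those of HNF4A and NID1 were lost without CM embryo 2 or BL embryo 2. edgeR called NID1 alone of the 3, and DESeq2 called NID1 and gave no adjusted p for the other two.

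Cavitation depends on the sodium pump, on sodium exchange and on aquaporins. Of 13 tested members of this list, 2 rose, against 2.91% of all loci. CFTR, SLC4A4 and CA2 had no reads in the 4 embryos, and over the other 10 the median log2 change was 0.79 (0.09 over the 13). SLC9A3 (XLOC_033557), the apical sodium-proton exchanger NHE3, had no reads in either compact morula and 127 and 103 CPM in the blastocysts, at least 92.8-fold higher (log2 change 6.92, SE 0.75, adjusted p = 1.5e-04). FXYD4 (XLOC_047279), a small regulator of the sodium pump, was at 3.08 and 3.57 CPM in the compact morulae and 76.6 and 45.5 CPM in the blastocysts (log2 change 3.68, SE 0.64, adjusted p = 0.00332). Both calls held whichever embryo was left out, although edgeR called only SLC9A3. The beta subunits of the pump did not pass: ATP1B1 (XLOC_019421) and ATP1B3 (XLOC_000865) held 6.15 and 14.3 CPM against 18.7 and 22 CPM and 92.3 and 67.1 CPM against 146 and 145 CPM (adjusted p = 0.511 and 0.658). AQP3 (XLOC_067468), a channel for water and glycerol, was at 41 and 41.4 CPM against 32.4 and 13.2 CPM (log2 change -1.13, adjusted p = 0.474). DESeq2 called SLC9A3 and not FXYD4 (adjusted p = 0.215). It also called SLC9A3R1 higher (109 and 47.8 CPM against 575 and 361 CPM; adjusted p = 0.0257), which did not pass limma (adjusted p = 0.0746).

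Among 31 tested genes of cell junctions, 2 rose and 1 fell, against 2.91% and 1.43% of all loci (median log2 change 1.07). DSC2 (XLOC_041272), a desmosomal cadherin, was at 6.15 and 0.714 CPM in the compact morulae and 156 and 101 CPM in the blastocysts (log2 change 5.12, SE 1.11, adjusted p = 0.0145), and TJP3 (XLOC_063795), a tight junction scaffold, at 3.08 and 1.43 CPM against 32.4 and 45.5 CPM (log2 change 3.56, SE 0.80, adjusted p = 0.0179). CLDN10 (XLOC_010416), a claudin that forms pores for ions, fell from 31.8 and 31.4 CPM to 2.95 and 0 CPM (log2 change -4.27, SE 0.94, adjusted p = 0.0154). The genes that carry the first junctions did not pass: CDH1 (XLOC_023960) (E-cadherin) held 371 and 179.9 CPM against 659 and 594 CPM, TJP1 (XLOC_035416) 63.6 and 50.7 CPM against 112 and 103 CPM, CLDN4 (XLOC_043498) 20.5 and 0 CPM against 28.5 and 36.7 CPM and DSP (XLOC_039941) 13.3 and 0.714 CPM against 69.7 and 35.2 CPM, with adjusted p between 0.105 and 0.628. All 3 calls were lost without CM embryo 2 and without BL embryo 2, those of DSC2 and TJP3 also without BL embryo 1 and that of CLDN10 also without CM embryo 1, and none was made by edgeR. GJB5 (XLOC_050544), a gap junction connexin chosen after its values were seen, held 3362 and 1313 CPM against 62.9 and 77.8 CPM and did not pass limma (log2 change -5.06, adjusted p = 0.0992) or edgeR (adjusted p = 0.0685), while DESeq2 called it lower (adjusted p = 0.00435).

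Polarity and Hippo genes, which turn the position of a cell into its fate, had 2 calls among 34 tested, both higher, against 2.91% of all loci (median log2 change 0.47 over the 33 with reads in these embryos, PARD6A having none). EZR (XLOC_070605), or ezrin, which ties actin to the apical membrane, rose from 536 and 49.97 CPM to 2966 and 1625 CPM (log2 change 3.56, SE 0.81, adjusted p = 0.0185) with compact morulae that differed widely. DLG1 (XLOC_000696), a basolateral scaffold, rose from 14.4 and 7.14 CPM to 88.4 and 82.2 CPM (log2 change 2.80, SE 0.60, adjusted p = 0.0129). YAP1 (XLOC_017377), the coactivator that Hippo holds out of the nucleus, matched by gene ID, was at 76.9 and 59.3 CPM against 172 and 181 CPM (log2 change 1.20, adjusted p = 0.325), and AMOTL2 (XLOC_000421), which binds it, at 15.4 and 7.14 CPM against 2.95 and 5.87 CPM (log2 change -1.31, adjusted p = 0.437). Of 40 tested ligands, receptors and effectors of FGF, TGF-beta and WNT signalling, none rose and 1 fell, against 2.91% and 1.43% of all loci. The fall was that of the activin receptor ACVR2A (XLOC_030558) (77.9 and 58.5 CPM in the compact morulae and 10.8 and 10.3 CPM in the blastocysts; log2 change -2.75, SE 0.54, adjusted p = 0.0071), which edgeR also called. At an unadjusted p under 0.05, 4 members of this list were higher and 4 lower, and SPRY1, ETV1 and ID3 had no reads in the 4 embryos. FGF4, the inner cell mass ligand of hypoblast formation, had 1 read in the 4 embryos, and its receptor FGFR2 (XLOC_044973) held 15.4 and 1.43 CPM against 10.8 and 35.2 CPM (log2 change 1.61, adjusted p = 0.414). edgeR called neither EZR nor DLG1. DESeq2 called both, and it also called RDX and the Hippo target CTGF lower (adjusted p = 0.0433 and 0.0327). RDX held 105 and 122 CPM against 29.5 and 30.8 CPM, and CTGF 87.1 and 55 CPM against 16.7 and 19.1 CPM. Neither passed limma (adjusted p = 0.0815 and 0.114) or edgeR. The calls of EZR and DLG1 were lost without CM embryo 2, without BL embryo 1 and without BL embryo 2, and that of ACVR2A without CM embryo 2 or BL embryo 2.

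Of 37 tested actin, keratin and annexin genes, 5 rose, none fell and 32 did not pass, against 2.91% of all loci called higher. In 26 the blastocysts lay wholly above the compact morulae, against 28.9% of all loci, and the median log2 change was 2.13, against 0.11. ACTB (XLOC_043197) (beta-actin) was at 911 and 299.8 CPM in the compact morulae and 8116 and 3793 CPM in the blastocysts (log2 change 3.23, SE 0.72, adjusted p = 0.0169). ANXA3 (XLOC_060333), a calcium-dependent membrane-binding protein, had no morula reads and 57 and 64.6 CPM in blastocysts (log2 change 6.02, SE 1.05, adjusted p = 0.00339). The other 3 calls were KRT8, KRT18 and KRT19, already counted with the trophectoderm. KRT5, a keratin that fell and is described with the falls, is not on this list. PLS1 (XLOC_000862), which bundles the actin of microvilli and was not on the list, was among the largest rises, with no morula reads and 172 and 145 CPM in blastocysts (log2 change 7.39, SE 1.18, adjusted p = 0.0018). It was also present in the second 16-cell embryo at 92.2 CPM. The call of ACTB was lost without CM embryo 2, without BL embryo 1 and without BL embryo 2, and the list then had 2, 2 and 1 of its 5 calls. That of ANXA3 was lost without BL embryo 2. edgeR called ANXA3, PLS1 and KRT19 of these genes. Reads of ACTB can also be shared with near-identical copies.

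In glucose metabolism, 4 of 20 tested genes rose and none fell, against 2.91% and 1.43% of all loci (median log2 change 0.78). ENO1 (XLOC_019460), a glycolytic enzyme, was at 9.23 and 8.57 CPM in the compact morulae and 154 and 125 CPM in the blastocysts (log2 change 3.67, SE 0.78, adjusted p = 0.0131). PKM2 (XLOC_003496) and LDHA (XLOC_048785), which make pyruvate and lactate, held 2.05 and 1.43 CPM against 33.4 and 27.9 CPM and 3.08 and 2.14 CPM against 61.9 and 48.4 CPM (adjusted p = 0.0376 and 0.0322). SLC16A7 (XLOC_057391), a carrier of pyruvate and lactate, had no reads before the blastocyst at any stage of the series and 22.6 and 95.4 CPM in the blastocysts (log2 change 5.65, SE 0.69, adjusted p = 3.5e-04). The glucose carriers SLC2A1 (XLOC_050477) and SLC2A3 (XLOC_057667) held 77.9 and 30.7 CPM against 70.7 and 79.3 CPM and 319.8 and 217 CPM against 373 and 336 CPM and did not pass (adjusted p = 0.879 and 0.937). The call of SLC16A7 held whichever embryo was left out, and those of ENO1, PKM2 and LDHA were lost in each of the 4 fits. edgeR called ENO1 and SLC16A7 and not PKM2 or LDHA. DESeq2 called ENO1 and LDHA, gave no adjusted p for PKM2 and did not call SLC16A7 (adjusted p = 0.508). As SLC16A7 had reads in blastocysts only, its own values held no spread once 1 blastocyst was left out. Those fits could not test its call.

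Of 29 tested genes of amino acid and nucleotide supply, 3 of 15 enzymes rose and 1 of 14 carriers fell, against 2.91% and 1.43% of all loci (median log2 change 0.52 over the 29). MTHFD2 (XLOC_007609), the mitochondrial folate enzyme, was at 6.15 and 3.57 CPM in the compact morulae and 194 and 144 CPM in the blastocysts (log2 change 4.75, SE 0.70, adjusted p = 0.00112). Its cytosolic counterpart MTHFD1 (XLOC_003846) rose from 1.03 and 0 CPM to 35.4 and 16.1 CPM (log2 change 4.18, SE 0.75, adjusted p = 0.00395). PSAT1 (XLOC_066965), which makes serine, had no morula reads and 54 and 25 CPM in blastocysts, at least 33.6-fold higher (log2 change 5.32, SE 0.90, adjusted p = 0.00263). SLC1A5 (XLOC_024844), a carrier of neutral amino acids, fell from 78.9 and 67.8 CPM to 12.8 and 4.40 CPM (log2 change -3.29, SE 0.73, adjusted p = 0.0161). All 4 were also called by edgeR. The call of MTHFD1 was lost without CM embryo 2 or BL embryo 1, that of SLC1A5 without CM embryo 1, CM embryo 2 or BL embryo 2, and those of MTHFD2 and PSAT1 in none of the 4 fits.

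In lipid and sterol synthesis, 4 of 33 tested genes rose and none fell, against 2.91% and 1.43% of all loci (median log2 change 0.28). HMGCS1 (XLOC_033472), an early enzyme of cholesterol synthesis, was at 9.23 and 2.86 CPM in the compact morulae and 53 and 77.8 CPM in the blastocysts (log2 change 3.25, SE 0.60, adjusted p = 0.00456), and SREBF2 (XLOC_057092), the transcription factor of that pathway, at 8.20 and 0 CPM against 39.3 and 39.6 CPM (log2 change 3.76, SE 0.93, adjusted p = 0.031). FASN (XLOC_027467), the fatty acid synthase, rose from 13.3 and 2.86 CPM to 107 and 101 CPM (log2 change 3.70, SE 0.87, adjusted p = 0.0231), and PLIN3 (XLOC_063040), a lipid droplet coat protein, from 12.3 and 1.43 CPM to 104 and 91 CPM (log2 change 4.02, SE 0.96, adjusted p = 0.0258). For FASN, PLIN3 and SREBF2 the morula reads lay mostly in CM embryo 1. Without CM embryo 2, and likewise without BL embryo 2, none of the 4 kept its call, without BL embryo 1 HMGCS1 alone did, and edgeR called HMGCS1 alone.

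Chromatin genes, the subject for which these embryos were mined, had 5 rises and 1 fall among 88 tested, against 2.91% and 1.43% of all loci (median log2 change 0.07 over the 87 with reads in these embryos, SMYD3 having none). DNMT3A (XLOC_007333), which methylates DNA de novo, was at 135 and 15 CPM in the compact morulae and 1040.2 and 706 CPM in the blastocysts (log2 change 4.04, SE 1.03, adjusted p = 0.0376). TET3 (XLOC_007610), a dioxygenase stored in the oocyte that oxidises methylcytosine, rose from 1.03 and 0 CPM to 29.5 and 17.6 CPM (log2 change 4.11, SE 0.77, adjusted p = 0.0054), against 131 CPM in MII oocytes (mean of 2). The gene ID of TET1 is carried by 2 loci of the table, so its level is uncertain: the higher (XLOC_047468) was at 2021 and 2481 CPM against 2189 and 2150.3 CPM (log2 change -0.22, adjusted p = 0.956) and the lower (XLOC_047305) at 83 and 77.8 CPM against 122 and 99.8 CPM (log2 change 0.28, adjusted p = 0.875). TET2 (XLOC_060476) was at 1.03 and 2.86 CPM against 1.96 and 8.81 CPM (log2 change 0.83, adjusted p = 0.684). DNMT1 (XLOC_063692), which maintains methylation, held 6.15 and 4.28 CPM against 1.96 and 16.1 CPM (log2 change 0.07, adjusted p = 1), and DNMT3B is listed at 0 in every sample of the series. The paper that mined these embryos reports DNMT3B transcripts with a transient rise at genome activation, so the 0 listed here need not mean absence.

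The other rises were KAT8 (XLOC_043073), an acetyltransferase of histone H4 (11.3 and 10.7 CPM in the compact morulae and 172 and 116 CPM in the blastocysts; log2 change 3.41, SE 0.74, adjusted p = 0.0141), H2AFY2 (XLOC_047315), a macroH2A variant (3.08 and 0 CPM against 20.6 and 17.6 CPM; log2 change 3.34, adjusted p = 0.0232), and KDM4B (XLOC_063772), a demethylase of histone H3 (3.08 and 0 CPM against 13.8 and 22 CPM; log2 change 3.22, adjusted p = 0.0477). WHSC1L1 (XLOC_046305), a methyltransferase also known as NSD3, fell from 72.8 and 47.8 CPM to 11.8 and 8.81 CPM (log2 change -2.60, SE 0.61, adjusted p = 0.023). H2AFY2 and KDM4B rest on few reads, with no reads in CM embryo 2. The paper that mined these embryos, which scales by transcript length, reports only small changes of KAT8 over the stages, none significant. Its mean for KAT8 was higher in blastocysts than in compact morulae, but by a far smaller factor than here. It lists DNMT3A as far higher in blastocysts, and H2AFY2 and TET3 below its limit of detection at both stages. The cause of these differences was not tested. By class, 2 of 6 DNA modifiers, 1 of 16 acetyltransferases, 1 of 17 demethylases, 1 of 10 histone variants and none of 30 methyltransferases or 9 deacetylases rose, against 2.91% of all loci. The call of WHSC1L1 was lost in each of the 4 fits that left out 1 embryo. None of the 5 rises kept its call without CM embryo 2 or without BL embryo 1, TET3 alone kept it without BL embryo 2, KAT8 lost it without CM embryo 1 as well, and edgeR called KAT8 and TET3 alone of the 6.

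**Figure D2:**
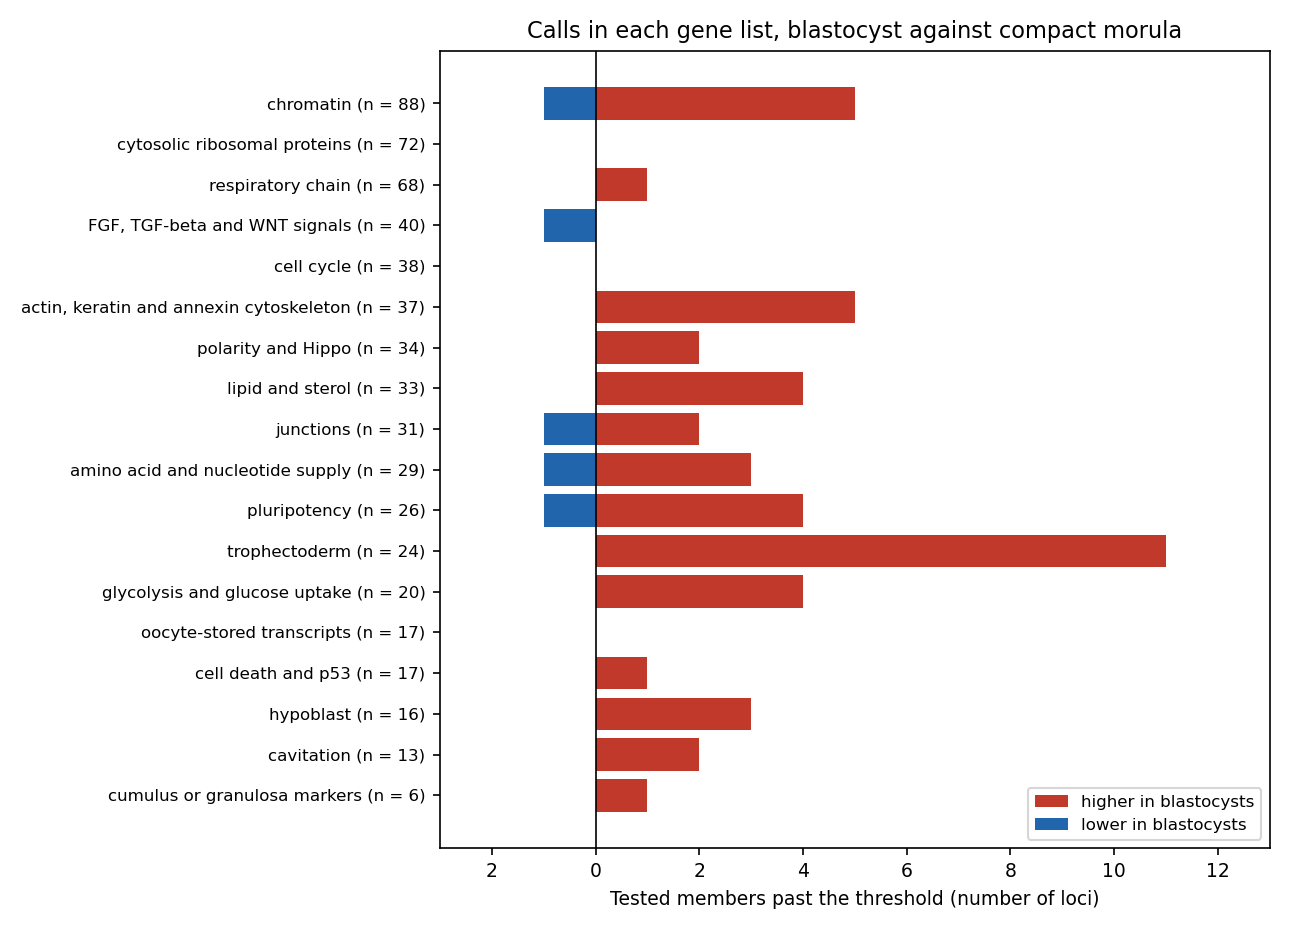
Number of tested autosomal members of each gene list that were called higher (right, red) or lower (left, blue) in blastocysts than in compact morulae, for lists with at least 6 members tested; n is the number tested. The trophectoderm list reaches 11 of 24, while the cell cycle, ribosomal protein and oocyte-stored lists have no call.

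Housekeeping groups moved little at the level of single genes. By limma none of 72 tested cytosolic ribosomal protein genes was called (1 at an unadjusted p under 0.05), and neither edgeR nor DESeq2 called any. Their median log2 change was 0.47, against 0.11 over all loci, and 47 of the 72 lay wholly higher in blastocysts, against 28.9% of all loci. Of 68 tested respiratory chain genes 1 rose, against 2.91% of all loci, namely ATPIF1 (XLOC_030808), an inhibitor of the ATP synthase (4.10 and 4.997 CPM against 62.9 and 51.4 CPM; log2 change 3.25, adjusted p = 0.0422), and the median was 0.50. None of 38 cell cycle genes passed limma or edgeR and 1 passed DESeq2, with 2 higher and 5 lower at an unadjusted p under 0.05. None of 17 oocyte-stored genes, of which MOS had no reads in the 4 embryos, passed any of the 3 tools (1 lower at an unadjusted p under 0.05). Of 17 genes of cell death and the p53 response 1 rose, against the same share, namely TIGAR (XLOC_057690), which restrains glycolysis (14.4 and 17.1 CPM against 95.3 and 83.7 CPM; log2 change 2.27, adjusted p = 0.043), and both this call and that of ATPIF1 were lost in each of the 4 fits that left out 1 embryo. edgeR made neither call. Of the 5 tested granulosa genes with reads in these embryos, HSD3B1 (XLOC_050844), an enzyme of progesterone synthesis that the placenta also makes, rose from no reads to 34.4 and 54.3 CPM (log2 change 5.54, SE 0.86, adjusted p = 0.00138), a call that held whichever embryo was left out and that edgeR did not make. Of the blood genes LYZ alone was tested and did not pass, and no uterine or sperm gene with reads in the 4 embryos was tested.

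The largest rises over all loci of at least 50 CPM began with SEPP1 (XLOC_033475), selenoprotein P, the plasma carrier of selenium, at 2.05 and 0 CPM in the compact morulae and 650.2 and 619 CPM in the blastocysts (log2 change 8.55, SE 0.92, adjusted p = 1.5e-04). HPCA (XLOC_030765), the neuronal calcium sensor hippocalcin, had no reads in either compact morula and 215 and 251 CPM in the blastocysts, at least 182-fold higher (log2 change 7.94, SE 0.91, adjusted p = 2.6e-04). PLS1, PTGS2, SLC9A3, KRT8 and KRT19 followed, with the values given above. SLC4A5 (XLOC_007093), a sodium bicarbonate cotransporter, was at 9.23 and 0 CPM in the compact morulae and 136 and 862 CPM in the blastocysts (log2 change 6.77, SE 1.51, adjusted p = 0.0161), and its 2 blastocysts differed widely. MFAP5 (XLOC_056982), of extracellular microfibrils, was at 9.23 and 0 CPM against 228 and 433 CPM (log2 change 6.65, SE 1.14, adjusted p = 0.003), and was present in early morulae at 54.8 and 11.6 CPM. P2RX4 (XLOC_021975), a cation channel opened by ATP, had no morula reads and 75.6 and 77.8 CPM in blastocysts, at least 60.6-fold higher (log2 change 6.36, SE 0.71, adjusted p = 1.9e-04). Without CM embryo 2, and likewise without BL embryo 2, PTGS2, SLC4A5, MFAP5 and KRT8 lost their calls, and without BL embryo 1 PTGS2 and KRT8 did. The other 6 of these 10 kept theirs in all 4 fits. edgeR called all of the 10 but KRT8, and DESeq2 all but SLC4A5 (adjusted p = 0.283).

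The largest falls were led by genes with provisional names, for which no role is given here. LOC789309 (XLOC_024085) fell from 1615 and 5089 CPM to 4.91 and 2.94 CPM (log2 change -9.41, SE 0.91, adjusted p = 9.4e-05), and LOC538435 (XLOC_063726) from 1687 and 7968 CPM to 50.1 and 33.8 CPM (log2 change -6.62, SE 0.95, adjusted p = 9.4e-04). LOC100140788 fell at both of its loci, at 1 (XLOC_046025) from 1439 and 3337 CPM to 9.82 and 0 CPM (log2 change -9.61, SE 1.20, adjusted p = 4.2e-04) and at the other (XLOC_046206) from 92.3 and 117 CPM to 0.982 and 0 CPM (log2 change -6.46, SE 0.94, adjusted p = 0.001). At these loci CM embryo 2 held a higher level than CM embryo 1, and both were far above the blastocysts. LOC788323 (XLOC_063952) went from 124 and 116 CPM to no reads in either blastocyst (log2 change -7.17, SE 1.03, adjusted p = 9.3e-04), and LOC508086 (XLOC_024084) from 249 and 181 CPM to 1.96 and 4.40 CPM (log2 change -5.93, SE 0.82, adjusted p = 7.4e-04).

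The falls with known products included homeobox genes. ARGFX (XLOC_000178), of the divergent PRD-like class active after genome activation, was at 47.2 and 72.8 CPM in the compact morulae and had no reads in either blastocyst, at least 35.3-fold lower (log2 change -6.15, SE 0.84, adjusted p = 6.4e-04). DBX1 (XLOC_048773), better known from the neural tube, held 62.5 and 83.5 CPM against 0.982 and 0 CPM (log2 change -5.94, SE 0.72, adjusted p = 3.5e-04), after a highest mean of 1767 CPM in 4-cell embryos. SLC28A2 (XLOC_003791), a sodium-coupled nucleoside carrier, fell from 122 and 567 CPM to 5.89 and 0 CPM (log2 change -6.89, SE 0.97, adjusted p = 8.2e-04), and KCTD19 (XLOC_024616) from 146 and 139.9 CPM to 0 and 5.87 CPM (log2 change -5.98, SE 1.19, adjusted p = 0.00758). All 10 of these loci were also called by edgeR, and 9 kept their call whichever embryo was left out, the exception being KCTD19 (lost without CM embryo 2 or BL embryo 1). A pair of well-covered genes chosen after their values were seen may be added. TFRC (XLOC_000682), the transferrin receptor that takes up iron, was at 103 and 312 CPM in the compact morulae and 38.3 and 27.9 CPM in the blastocysts (log2 change -2.59, SE 0.65, adjusted p = 0.0339). KRT5, a keratin of stratified epithelia, held 4181 and 2916 CPM against 103 and 69 CPM at its main locus (XLOC_057261; log2 change -5.53, SE 1.03, adjusted p = 0.00521), the opposite direction to KRT8, KRT18 and KRT19. That locus is numbered next to KRT18 in the table. edgeR called both, and the limma calls were lost without CM embryo 2 or BL embryo 2, that of TFRC also without BL embryo 1.

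**Figure D3:**
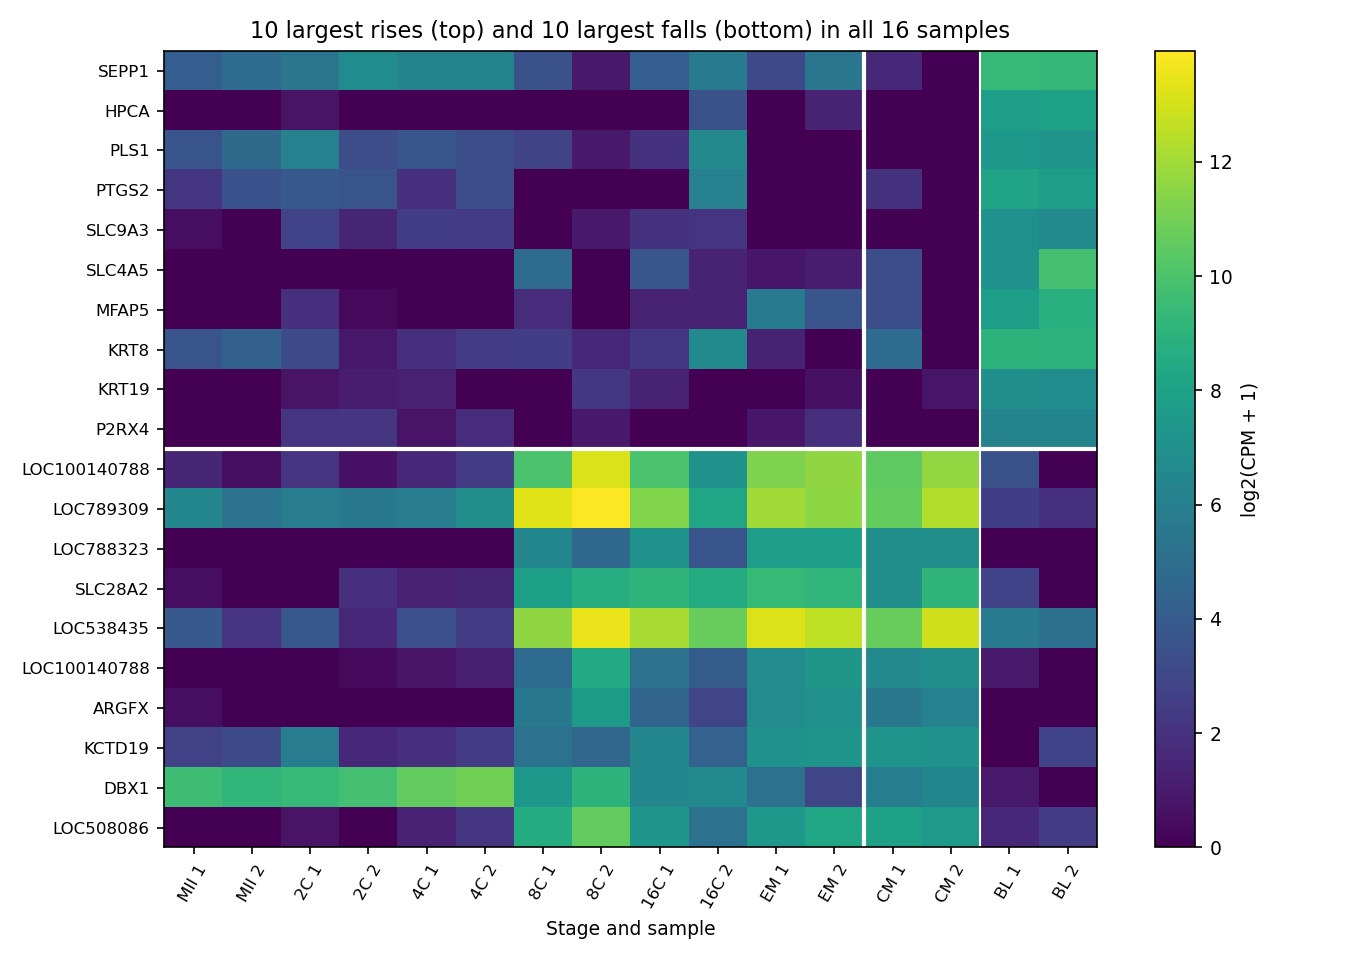
Level of the 10 largest rises (above the white line) and the 10 largest falls (below it) in all 16 samples, as log2(CPM + 1), in order of stage from mature oocytes (MII) to blastocysts (BL); LOC100140788 appears at 2 loci. Apart from DBX1, most falling loci are near 0 until the 4-cell stage, high from the 8-cell stage and near 0 again in both blastocysts, and most rising loci are low at every stage before the blastocyst, apart from the second 16-cell embryo.

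The stage of the highest mean was counted for the called loci as a description, since a locus called higher in blastocysts cannot be highest in compact morulae, nor one called lower in blastocysts. Over all 9380 loci tested, 2122 were highest in blastocysts, 2098 in early morulae and 454 in compact morulae. The earlier stages had 572 (MII oocytes), 1524 (2-cell), 1179 (4-cell), 657 (8-cell) and 774 (16-cell). Of the 273 higher loci, 222 had their highest mean of all 8 stages in blastocysts, 25 in 2-cell embryos and 11 in MII oocytes. Of the 134 lower loci, 47 were highest in early morulae, 29 in compact morulae, 20 in 8-cell and 17 in 4-cell embryos. Of the 75 lower loci of at least 50 CPM in compact morulae, 73 were also higher in 8-cell embryos than in blastocysts, and 30 were below 10 CPM in MII oocytes. Of the 110 higher loci of at least 50 CPM in blastocysts, 67 were below 10 CPM in MII oocytes. These counts at 50 CPM or more were not set against all loci and only describe the called ones. Assembled loci without a gene name gave 16 of the higher and 19 of the lower calls, from 543 tested. Among all 9380 tested, 273 (2.91%) were higher and 134 (1.43%) lower.

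Loci with reads at 1 of the 2 stages were counted without a test. In blastocysts 61 loci had at least 10 reads in each embryo and none in either compact morula, and in compact morulae 20 had such reads and none in either blastocyst. With a minimum of 20 reads the counts were 26 and 9, and with 5 reads there were 118 and 44. Among those found in blastocysts were HPCA, PLS1, SLC9A3, NID1, P2RX4, ANXA3, SLC16A7 and TFAP2A, given above. Most of the 61 had reads at some earlier stage. The 5 with none in any of the 14 samples before were BEST1 (XLOC_048554), a calcium-activated anion channel (36.3 and 54.3 CPM), LOC783399 (XLOC_067170) (45.2 and 80.7 CPM), MGLL (XLOC_037491), which cleaves monoglycerides (12.8 and 25 CPM), and SLC16A7 and UPP1. Set against 3 reads over both compact morulae they were at least 34.5-fold, at least 47.1-fold, at least 14-fold, at least 41-fold and at least 17.2-fold higher, in that order.

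Of the 5 loci with the highest mean at each stage, ODC1 and TUBA1C were in both sets. In the blastocysts the highest mean belonged to the unnamed locus CUFF.63722.1 (XLOC_051067), at 1553 and 759.6 CPM in the compact morulae and 8982 and 59039.5 CPM in the blastocysts (log2 change 4.23, SE 0.92, adjusted p = 0.0144). The blastocysts differed widely from each other, and the call, which edgeR shared, was lost without CM embryo 2 or BL embryo 2. DLGAP5 (XLOC_004351), a protein of the mitotic spindle, came next at 1904 and 2165 CPM in the compact morulae and 31149 and 24115 CPM in the blastocysts and did not pass limma (log2 change 3.58, adjusted p = 0.083) or edgeR, while DESeq2 called it higher (adjusted p = 0.00685). ODC1 (XLOC_007380), the first enzyme of polyamine synthesis, had the most reads in compact morulae and held 29316 and 38646 CPM against 26528 and 27631 CPM (log2 change -0.49, adjusted p = 0.85). TUBA1C (XLOC_057303), an alpha-tubulin, and CAND2 (XLOC_037747), a regulator of cullin ligases, held 19411 and 44674 CPM against 27292 and 12803 CPM and 14371 and 20990.4 CPM against 18451 and 17069 CPM (adjusted p = 0.634 and 0.975). The rest of the 5 highest in compact morulae were LOC100849231 (XLOC_063404), METTL23 (XLOC_028231) and SURF1 (XLOC_008058), the last an assembly factor of cytochrome oxidase, and none of them passed limma (adjusted p = 0.253, 0.196 and 0.834) or edgeR, while DESeq2 called METTL23 lower (adjusted p = 0.0295).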

How the data were processed

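RNA-Seq of 16 single oocytes and embryos (2 at each of 8 stages) was used, with groups and replicate numbers from the sample titles. The authors trimmed, mapped and counted the reads per locus (cutadapt, TopHat, Cufflinks and HTSeq are among the tools in the submitters' processing notes, without versions; the genome build is not given in the sources used here), and the deposited signal is the count of each locus divided by a size factor of its sample. In each column every value divided by the smallest value above 0 came out whole (100% at a tolerance of 0.01), so counts were recovered from the deposited values by that division. CPM were computed from these reads. The 3-read limit covers counting error alone, because copies made in the amplification cannot be recognised. How reads with several mapping places were treated is not given in the sources used here, so values of multigene families and genes with near-identical or overlapping copies are uncertain.

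Loci were placed on the 29 autosomes through gene symbols (10626 of the members), synonyms (771) or, for 2402, the agreement of 3 numbered neighbours on each side, with RefSeq genes of assembly ARS-UCD2.0. Checked on 16976 loci with a symbol, the neighbour rule gave the same chromosome for 99.67%. Loci on sex chromosomes or the mitochondrial genome (346 with reads) and 130 that could not be placed were left out of the counts.

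The test was limma 3.58.1 (R 4.3.3) with a mean-variance trend on log2(deposited value + 1), with 1 mean for each of 8 stages (8 residual degrees of freedom) over the 9670 loci that passed edgeR's filterByExpr on the whole reads, and Benjamini-Hochberg adjustment over all of them at 0.05. Autosomal calls are counted. On simulated reads with 200 changed loci among 9670 (3 draws), limma recovered 78 to 80% of 16-fold and 6 to 8% of 4-fold changes, with 9 to 21 false among 95 to 106 calls. edgeR 4.0.16 recovered 83 to 86% and 6 to 11%, with 2 to 8 false among 97 to 99 calls. The text therefore says of named calls whether edgeR shares them. The changed loci of the simulation were drawn only from well-covered ones, with the spread that edgeR estimated. In the data, 84 of the 273 higher loci had no reads in the compact morulae, so the simulated rates need not hold for them. Nothing in the labels ties embryos of a stage to separate dams or sires, so p-values measure a spread between embryos. That spread was pooled over all 8 stages and is not that of the 4 compared embryos alone.

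The 21 gene lists hold 922 symbols, of which 880 were matched by name, 10 by synonym, 6 by gene ID and 26 were not found. The members, lists and tests were chosen with earlier results of these data known. Where a gene has several loci, the one with the highest mean level was used for the lists. Genes named are the 10 largest rises and 10 largest falls among called loci with a symbol, no overlap between the stages and at least 50 CPM at the higher stage, up to 6 called members of each list in each direction, a set of defining lineage genes, and the 5 loci with the highest mean at each stage. Exceptions are marked in the text, and a gene that the rule names is not reported here. Marker genes of other cells are given as counts, with the levels of those that held reads in number or were called. Alternatives were 2 other scalings, pseudocounts of 0.5 and 5, other filters, edgeR and DESeq2 1.42.0 on the recovered reads, the 4 embryos alone, the replicate number as a block and each embryo left out. Taking the spread from the 10 embryos from the 8-cell stage on, voom weights, and leaving out the second 16-cell embryo were added after seeing the data. Same-numbered embryos did not deviate together (r = -0.04 across 9670 loci, which are not independent). Figures were drawn with matplotlib 3.10.9 in Python 3.11.15.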

Additional observations from a re-analysis of the deposited data

How the results depend on the processing

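With 2 embryos a stage the counts followed the choice of the spread more than the scaling. Loci higher in blastocysts, 273 as reported, were 445 with a pseudocount of 5, 415 without a filter on low counts, 69 with edgeR, 171 with DESeq2 and 121 with the spread from the 8-cell stage on. Loci lower, 134 as reported, were 75 with edgeR, 64 with the spread from the 8-cell stage on, 171 with DESeq2 and 163 with at least 10 reads in both embryos of either stage, and a pseudocount of 5 raised this count as well. The 4 embryos alone gave 0 and 0 by limma, with 1721 loci at an unadjusted p under 0.05. Leaving out 1 embryo gave 87 to 287 higher and 37 to 108 lower. The 11 trophectoderm members were 3 with edgeR, 4 with DESeq2, 5 with the spread from the 8-cell stage on, 0 with the 4 embryos alone, and 3 to 10 with 1 embryo left out. Of all called loci, 67.1% were higher in blastocysts as reported, 47.9% with edgeR, 50% with DESeq2, and 71.8% and 61.7% when scaled to all reads and by TMM. These scalings gave 329 and 238 higher and 129 and 148 lower, with a median log2 change of 0.26 and 0.00 over all loci. With the replicate number as a block, 248 were higher and 125 lower; the number is only a label, so this is no sign of pairing. Loci found at 1 stage only were 118 and 44 with a minimum of 5 reads and 26 and 9 with 20, for blastocysts and compact morulae. Of the 64 named genes called by limma under the naming rule, 35 were called by edgeR and 31 with the spread from the 8-cell stage on. With a pseudocount of 0.5 the number was 52, with voom weights 60 and with the block 63. It was 60 without the second 16-cell embryo (272 higher and 132 lower loci in all), and none were called with the 4 embryos alone. DESeq2 called 44 of the 54 to which it gave an adjusted p. None of the 64 changed its direction in any of these fits. The cause of these shifts was not tested. Most of the 4-fold changes set in the simulated reads were not recovered.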
